A study of Homo sapiens with 16 samples.

Results

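The genes examined were the 9 members of the protein arginine methyltransferase family, CARM1 (also named PRMT4), PRMT1, PRMT2, PRMT3, PRMT5, PRMT6, PRMT7, PRMT8 and PRMT9, out of 19970 protein-coding genes. For each gene, the peaks of 3 histone marks were collected over the gene and 10 kb to either side, and all 9 genes were found in the GRCh38.p14 RefSeq table. The cells were Toledo, a cell line established from a diffuse large B-cell lymphoma and grown in suspension in RPMI 1640 medium. One group was cultured with 5 uM of TP-064, an inhibitor of the enzyme CARM1, and the other with the solvent DMSO, each for 6 days. Chromatin immunoprecipitation with sequencing (ChIP-seq) was done with antibodies to H3K27ac, H3K4me1 and H3K4me3, in 2 libraries per mark and treatment, which gives 12 peak lists. The study is titled as one on CARM1 inhibition in lymphomas with mutated CREBBP or EP300, and the comparison here asks whether other family members gained active chromatin marks when CARM1 was inhibited.

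Protein arginine methyltransferases move methyl groups from S-adenosylmethionine to arginine side chains of histones and many other proteins. CARM1, PRMT1, PRMT2, PRMT3, PRMT6 and PRMT8 are type I enzymes, which make asymmetric dimethylarginine, with PRMT1 as the main one in most cells. PRMT5 and PRMT9 are type II enzymes, which make symmetric dimethylarginine, and PRMT7 makes monomethylarginine. H3K4me3 marks promoters, H3K27ac marks active promoters and enhancers, and H3K4me1 marks mainly enhancers. An inhibitor of the enzyme does not remove the CARM1 gene, so the marks at CARM1 do not check the treatment.

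The members are spread over 8 chromosomes, with CARM1 (chr19:10871553-10923075) and PRMT1 (chr19:49676153-49688447) on the same one, far apart. PRMT2 lies at chr21:46635674-46665124, PRMT3 at chr11:20387716-20509338, PRMT6 at chr1:107056674-107059294, PRMT7 at chr16:68311019-68360870 and PRMT8 at chr12:3381349-3593973, all on the plus strand. PRMT5 (chr14:22920529-22929376) and PRMT9 (chr4:147637785-147684163) are on the minus strand. PRMT1 is the member whose start in the promoter table, chr19:49677271, lies inside the gene model rather than at its edge, and distances from its start count from that base.

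The promoters of 4 members are shown, chosen for the place of these genes in the results below. PRMT1 and PRMT3 carried H3K27ac in both DMSO libraries and in neither inhibitor library. CARM1 encodes the inhibited enzyme, and PRMT8 had no peak in any library. Each sequence is the 250 bases before the first gene start in the RefSeq promoter table (GRCh38.p14), 5′ to 3′ along the gene, so the first base is at -250 and the last at -1. Capitals mark the matches, on either strand, to 8 short motifs: the CCAAT box, the TATA box (TATAAA), the GC box bound by SP1 (GGGCGG), the E-box (CACGTG), and the core sites of the ETS (CCGGAAG), E2F (TTCCCGC), ATF and CREB (TGACGT) and NRF1 (GCATGCG) factors.
PRMT1 (chr19:49677021-49677270, plus strand): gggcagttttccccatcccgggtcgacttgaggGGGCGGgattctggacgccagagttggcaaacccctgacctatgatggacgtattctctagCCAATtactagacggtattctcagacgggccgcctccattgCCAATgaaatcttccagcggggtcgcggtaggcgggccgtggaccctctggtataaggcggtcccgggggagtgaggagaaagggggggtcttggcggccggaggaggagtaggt
PRMT3 (chr11:20387466-20387715, plus strand): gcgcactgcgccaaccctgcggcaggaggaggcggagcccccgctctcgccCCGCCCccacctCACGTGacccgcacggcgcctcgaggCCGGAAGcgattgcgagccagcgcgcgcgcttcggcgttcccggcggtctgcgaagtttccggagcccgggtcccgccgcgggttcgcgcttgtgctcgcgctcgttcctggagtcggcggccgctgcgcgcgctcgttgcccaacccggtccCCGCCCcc
CARM1 (chr19:10871303-10871552, plus strand): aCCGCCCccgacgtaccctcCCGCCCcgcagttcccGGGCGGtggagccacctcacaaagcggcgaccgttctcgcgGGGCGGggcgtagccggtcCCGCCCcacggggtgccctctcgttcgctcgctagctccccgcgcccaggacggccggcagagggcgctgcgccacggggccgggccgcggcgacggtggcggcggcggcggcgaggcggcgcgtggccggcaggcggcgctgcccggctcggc
PRMT8 (chr12:3381099-3381348, plus strand): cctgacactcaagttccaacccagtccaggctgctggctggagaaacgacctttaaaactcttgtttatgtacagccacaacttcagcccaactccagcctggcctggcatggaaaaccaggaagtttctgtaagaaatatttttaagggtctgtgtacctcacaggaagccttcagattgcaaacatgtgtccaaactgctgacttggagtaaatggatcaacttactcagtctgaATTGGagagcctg
The CARM1 stretch held 5 matches to GGGCGG, the PRMT1 stretch 1 and the PRMT3 stretch 2. PRMT1 also had CCAAT at -156 and -115, and PRMT3 had an E-box at -187 and an ETS core site at -161. The PRMT8 stretch held CCAAT at -13. Over the 300 bases that end 50 bases after the start, 58.5% of 15812 protein-coding promoters held the GC box, 36.3% the CCAAT box, 8.87% the E-box and 14.2% the ETS core site. These matches are a description of the letters, and no matches overlap in the 4 stretches. In the same 300 bases the GC share was 82.3% for CARM1 and 62.0% for PRMT1, against a median of 62.7% over all promoters. PRMT8 stood apart from the others shown, with a GC share of 47.0% and 1 CpG, where CARM1 had 56, PRMT3 48 and PRMT1 22. A second PRMT8 start in the table, at chr12:3491203, had a GC share of 73.0% and 30 CpGs, and it had no peak either. CARM1 also had a second start, at chr19:10872429, with a GC share of 69.0% and 22 CpGs.

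The lists held 4016 to 7885 H3K27ac peaks, 4094 to 25058 H3K4me1 peaks and 10048 to 12476 H3K4me3 peaks. Read depth is unknown, since the lists hold positions without reads or scores, and a site without a peak may lie below the caller's threshold. DMSO replicate 1 had the longest list of each mark, and all DMSO libraries were on lane 3 and all inhibitor libraries on lane 4, which means that an effect of the lane and one of the inhibitor cannot be told apart. As a check of the cell line, the B-cell markers PAX5, CD79A, CD79B, MS4A1 and EBF1 had H3K4me3 and H3K27ac in every library, and 4 of 4 T-cell markers had no H3K4me3 peak. Of the T-cell markers, CD3D, CD3E and CD28 had no H3K27ac peak either, while the window of CD2 had 1438 and 0 bp with DMSO against 2996 and 1615 bp. Among the myeloid markers CD14 and LYZ had H3K4me3 in all libraries and CSF1R and MPO in none. Of the epithelial and stromal markers, CDH1 had it in all libraries, COL1A1 with DMSO only, and EPCAM and KRT8 in none. Their part in the results below was not tested.

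**Figure D1:**
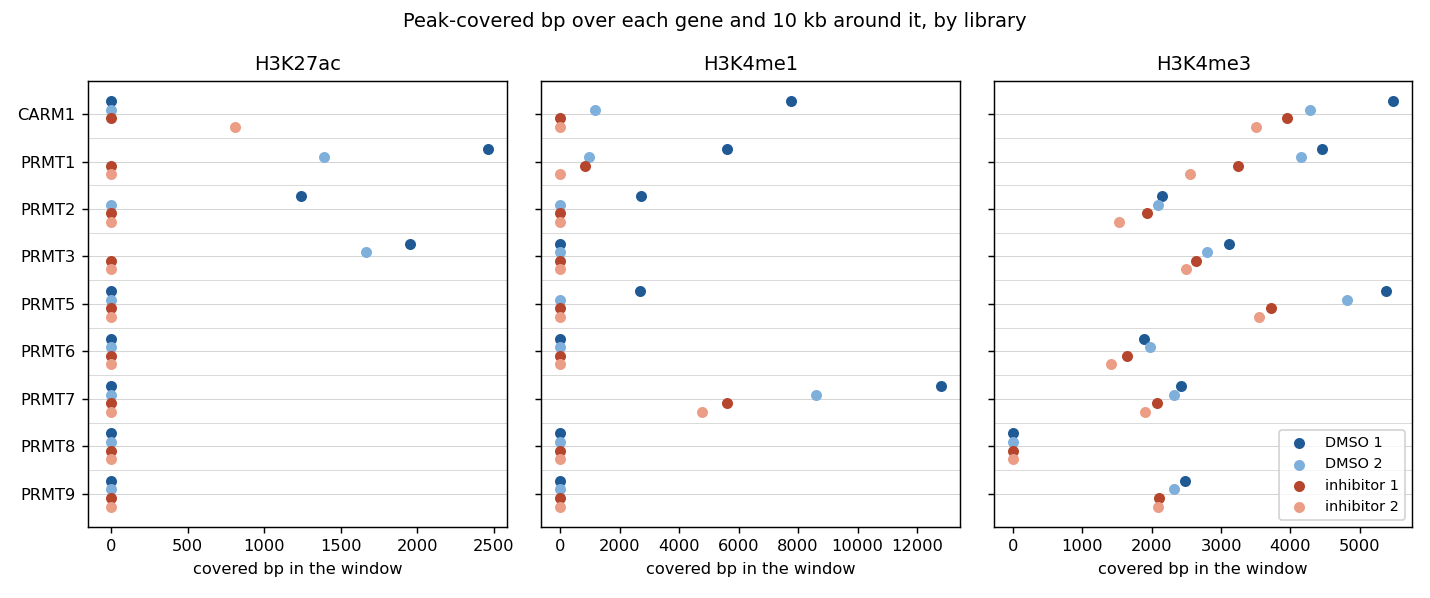
Base pairs covered by peaks (x axis) over each gene and 10 kb around it (y axis), with 1 panel per mark and 1 point per library. H3K4me3 points of the inhibitor libraries lie left of both DMSO points for all 8 genes with a peak, while H3K27ac appears at 4 genes only.

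H3K4me3 was present at 8 of the 9 members in every library, and in all 32 of these cases a peak covered the gene start. The exception was PRMT8, an enzyme known from the brain, whose nearest H3K4me3 peak lay between 303200 and 303519 bp from its first start. Over all genes, 56.6% had an H3K4me3 peak in the same window in all 4 libraries, and 48.7% of the 15812 genes with a known start had one over it. No member lost H3K4me3 (a loss is a peak in DMSO replicates 1 and 2 and in neither inhibitor library, and a gain the reverse), where 4.79% of the 12309 genes that carried it in DMSO replicates 1 and 2 did, and no member gained it (0.11% of genes without a DMSO peak).

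H3K27ac was sparser. PRMT1 had peaks of 2463 and 1388 bp with DMSO and none with the inhibitor. PRMT3, a ribosome-associated enzyme of the cytoplasm, had peaks of 1951 and 1665 bp with DMSO and none with the inhibitor. Both genes were covered in both DMSO libraries and uncovered in both inhibitor libraries, and the DMSO peaks of the 2 libraries shared 1267 bp at PRMT1 and 1665 bp at PRMT3. Each of these peaks lay over the gene start: from 1505 bp before to 957 bp after it and from 309 bp before to 1078 bp after it at PRMT1, and from 1016 bp before to 934 bp after it and from 966 bp before to 698 bp after it at PRMT3. The difference in covered length was -1925.5 bp at PRMT1 (means of 1925.5 ± 760.1 and 0, SD, n = 2) and -1808.0 bp at PRMT3 (1808.0 ± 202.2 and 0). The exact permutation p was 0.33 for each, two-sided, the smallest that 4 libraries allow.

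The loss at PRMT1 and PRMT3 has to be read against a common event. Of 3468 genes with H3K27ac in the window in both DMSO libraries, 24.1% had none in either inhibitor library, and PRMT1 and PRMT3 were the only members (2 of 9) in that starting set. With those genes cut into 4 groups by mean DMSO covered length, both fell in group 2 (1537.5 to 2135.5 bp), where 27.6% of 866 genes lost the mark, against 49.5% in group 1, with the shortest coverage, and 3.46% in group 4. A peak in both DMSO libraries was itself seen at 17.4% of all genes, and less coverage in both inhibitor libraries at 25.3% of those with any H3K27ac peak. For peaks over the gene start alone, 30.8% of 1604 genes lost H3K27ac. Within their own lists the PRMT1 peaks were at the 74.1 and 40.8 width percentiles and the PRMT3 peaks at the 58.6 and 55.3, so they were not among the narrowest. Both genes kept H3K4me3 over the same start in all 4 libraries. At PRMT3 the next H3K27ac peak with the inhibitor was 952763 and 952703 bp from the start in the 2 libraries, and at PRMT1 it was 251337 and 35929 bp away.

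CARM1 and PRMT2 had an H3K27ac peak in 1 library each. At CARM1 neither DMSO library had a peak, and inhibitor replicates 1 and 2 had 0 and 809 bp. The single peak ran from 35 bp before to 773 bp after the start, and at the 2.63 width percentile it was one of the narrowest of its list. A peak in inhibitor replicate 2 alone was seen for 2.07% of the 7407 genes with any H3K27ac peak. At PRMT2, whose product acts as a coactivator of nuclear receptors, DMSO replicates 1 and 2 had 1241 and 0 bp, and both inhibitor libraries were at 0. A peak in DMSO replicate 1 alone, the longest H3K27ac list, was a frequent pattern, at 29.3% of those genes. The groups overlapped at both genes (exact permutation p = 1, two-sided). PRMT5, PRMT6, PRMT7, PRMT8 and PRMT9 had no H3K27ac peak in their windows in any library, as was the case for 62.9% of all genes. No member gained H3K27ac, against 0.982% of the genes without a DMSO peak. When inhibitor replicate 1 was left out, CARM1 counted as 1 gain. No member had H3K27ac in all 4 libraries, so none entered the main limma fit, in which 0 of 1886 genes were called (0.0%) and 157 had an unadjusted p under 0.05. A further fit took genes covered in any library, with 1000 bp added to each value, and called 0 of 7407 genes. In it PRMT1 changed by -1.52 and PRMT3 by -1.49 (limma, adjusted p = 0.264 each). PRMT2 changed by -0.58 and CARM1 by 0.43 (limma, adjusted p = 0.582 and 0.59). These sizes depend on the added 1000 bp, since libraries without a peak count as 0 bp.

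**Figure D2:**
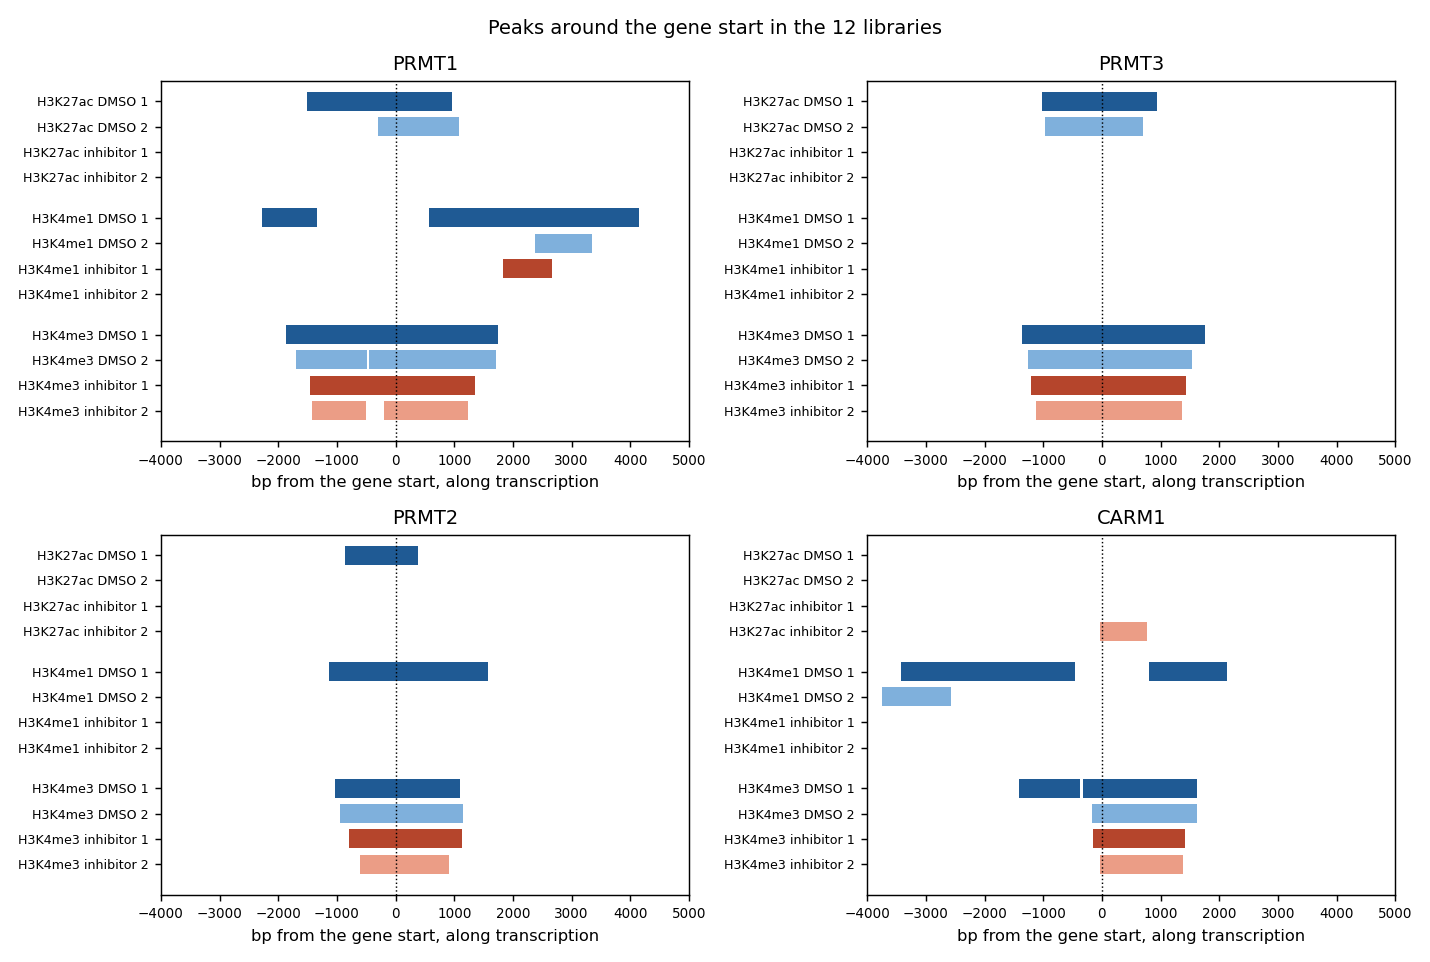
Peaks of the 3 marks in the 12 libraries (rows, 1 bar per peak, blue for DMSO and red for the inhibitor) by distance from the gene start in bp at PRMT1, PRMT3, PRMT2 and CARM1. H3K27ac at PRMT1 and PRMT3 is seen in both DMSO rows and in neither inhibitor row, while H3K4me3 spans the start in every row.

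The length covered by H3K4me3 was lower with the inhibitor at each of the 8 members that carry it, as at most genes. CARM1 had 5484 and 4281 covered bp with DMSO against 3950 and 3504 bp with the inhibitor, which includes a peak over the neighbouring YIPF2 and TIMM29 and, in DMSO replicate 1, a separate peak of 1040 bp before the CARM1 start. PRMT1 had 4455 and 4152 bp against 3239 and 2551 bp, which includes the edge of a peak at IRF3 and BCL2L12. PRMT3 had 3115 and 2797 bp against 2643 and 2491 bp. The groups did not overlap at any of these 3 genes. PRMT5, the main type II enzyme, had 5371 and 4821 bp against 3725 and 3551 bp, including a peak at the neighbouring RBM23. PRMT2 had 2141 and 2094 bp against 1931 and 1533 bp, and PRMT6, a nuclear type I enzyme encoded by a short gene, had 1893 and 1970 bp against 1645 and 1412 bp. These 3 genes also had both inhibitor libraries below both DMSO libraries. PRMT7 had 2418 and 2318 bp against 2079 and 1899 bp, from 1 peak that also reached SLC7A6OS. PRMT9, a type II enzyme that methylates a splicing factor, had 2472 and 2319 bp against 2109 and 2092 bp. In all, 8 of 8 members with the mark had less coverage in both inhibitor libraries, and 82.8% of the 12791 genes with an H3K4me3 peak did the same. The exact permutation p was 0.33 at each of the 8, two-sided.

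To compare the size of these differences with their error, log2 covered length was fitted with limma over the 11311 genes covered in all 4 H3K4me3 libraries. PRMT1 changed by -0.58 ± 0.14 (SE; limma, adjusted p = 0.0416) and PRMT5 by -0.49 ± 0.11 (limma, adjusted p = 0.0331), so that 2 of 8 members passed, against 17.4% of all genes tested that were called lower and 0.0796% called higher. CARM1 changed by -0.38 ± 0.15 (limma, adjusted p = 0.0969) and PRMT6 by -0.34 ± 0.13 (limma, adjusted p = 0.0898). PRMT2, PRMT3, PRMT7 and PRMT9 had values between -0.30 and -0.19, with adjusted p from 0.113 to 0.168 by limma. The windows of PRMT1, PRMT5 and CARM1 include peak bases at neighbouring genes, and the order of the members depended on the window. With the gene body only, PRMT1 changed by -0.33 (limma, adjusted p = 0.147) and PRMT5 by -0.41 (limma, adjusted p = 0.114), where the median was -0.23. There PRMT7 changed by -0.39 and CARM1 by -0.21 (limma, adjusted p = 0.0986 and 0.132). With 2 kb windows PRMT1 and PRMT5 changed by -0.44 and -0.45 (limma, adjusted p = 0.0457 and 0.0279), where the median was -0.27. CARM1 had the lowest value of the 8 in those windows, -0.63 ± 0.23, and was not called (limma, adjusted p = 0.083). In the 10 kb windows the median of all genes was -0.29, so PRMT1 lay 0.29 below it and PRMT5 0.19 below it. PRMT9 lay 0.10 above it. When each library was centred on its median, none of the 8 passed (PRMT1 -0.24 ± 0.09, limma adjusted p = 0.208; PRMT5 -0.14 ± 0.07, limma adjusted p = 0.259). In that scaling PRMT2, PRMT3, PRMT6, PRMT7 and PRMT9 had values from 0.00 to 0.15 in place of negative ones, and 1 of 8 had an unadjusted p under 0.05. The PRMT1 call also ended when DMSO replicate 1, DMSO replicate 2 or inhibitor replicate 2 was left out, with values of -0.53, -0.63 and -0.41 (limma, adjusted p = 0.151, 0.0516 and 0.101). The PRMT5 call ended without DMSO replicate 1 or inhibitor replicate 2, with values of -0.41 and -0.45 (limma, adjusted p = 0.181 and 0.0939). CARM1 passed without DMSO replicate 2 (-0.56, limma, adjusted p = 0.0494), and without inhibitor replicate 1 PRMT2 and PRMT6 passed as well (limma, adjusted p = 0.0343 and 0.0406).

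**Figure D3:**
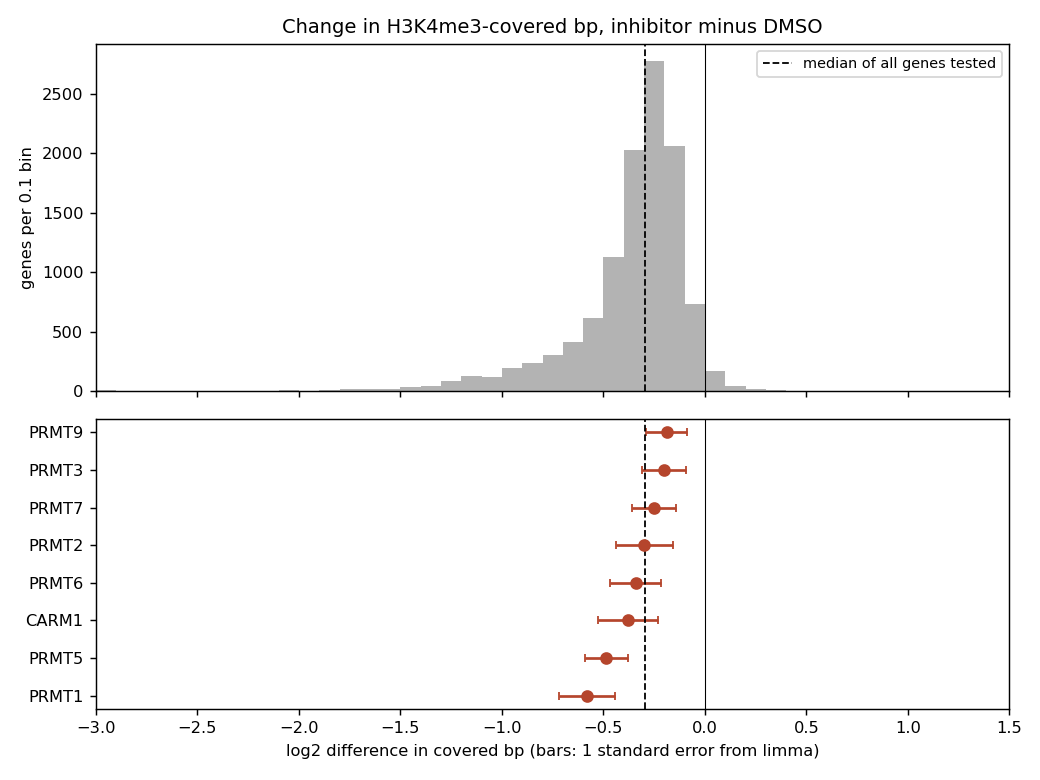
Upper panel: number of genes per bin of the log2 difference in H3K4me3-covered bp, inhibitor minus DMSO, over the 11311 genes covered in all 4 libraries (values beyond -3 are in the first bin). Lower panel: the 8 members with limma standard errors, which run from -0.58 at PRMT1 to -0.19 at PRMT9 around the median of -0.29 (dashed line).

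The edges of the H3K4me3 peak over the start were compared next. Its width was smaller in both inhibitor libraries at 7 of the 8 members, and 82.1% of 7698 genes with such a peak in all 4 libraries showed this. PRMT5 had widths of 3218 and 2843 bp in the DMSO libraries against 2112 and 2033 bp, a mean difference of -958.0 bp, where the median difference over all genes was -380.0 bp. CARM1 had 1942 and 1798 bp against 1578 and 1410 bp, a difference of -376.0 bp. At PRMT5 the upstream reach was 1859 and 1686 bp in the DMSO libraries against 1158 and 1101 bp, and the downstream reach was 1358 and 1156 bp against 953 and 931 bp. The medians over all genes with such a peak were 1018 and 956 bp against 822.5 and 722.0 bp upstream, and 1347.5 and 1262 bp against 1154 and 1068 bp downstream. Both sides of the PRMT5 peak were shorter with the inhibitor, and the groups did not overlap on either side. PRMT9 differed on the upstream side (1157 and 1019 bp against 866 and 772 bp), while its downstream reach overlapped between groups (1314 and 1299 bp against 1242 and 1319 bp). At CARM1 the peak started close to the gene start in all libraries, with an upstream reach of 320 and 173 bp against 155 and 25 bp, and lay mostly inside the gene. PRMT1 was the member whose widths overlapped between groups (3609 and 2173 bp against 2809 and 1444 bp). In replicate 2 of each treatment its H3K4me3 was listed as 2 neighbouring peaks, of which 1 covers the start. Its downstream edge lay in the peak over the start in every library and reached 1737 and 1717 bp in the DMSO libraries against 1344 and 1241 bp. Over the family the upstream side was shorter in both inhibitor libraries at 7 of 8 members and the downstream side at 6 of 8, against 70.5% and 69.6% of all genes.

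**Figure D4:**
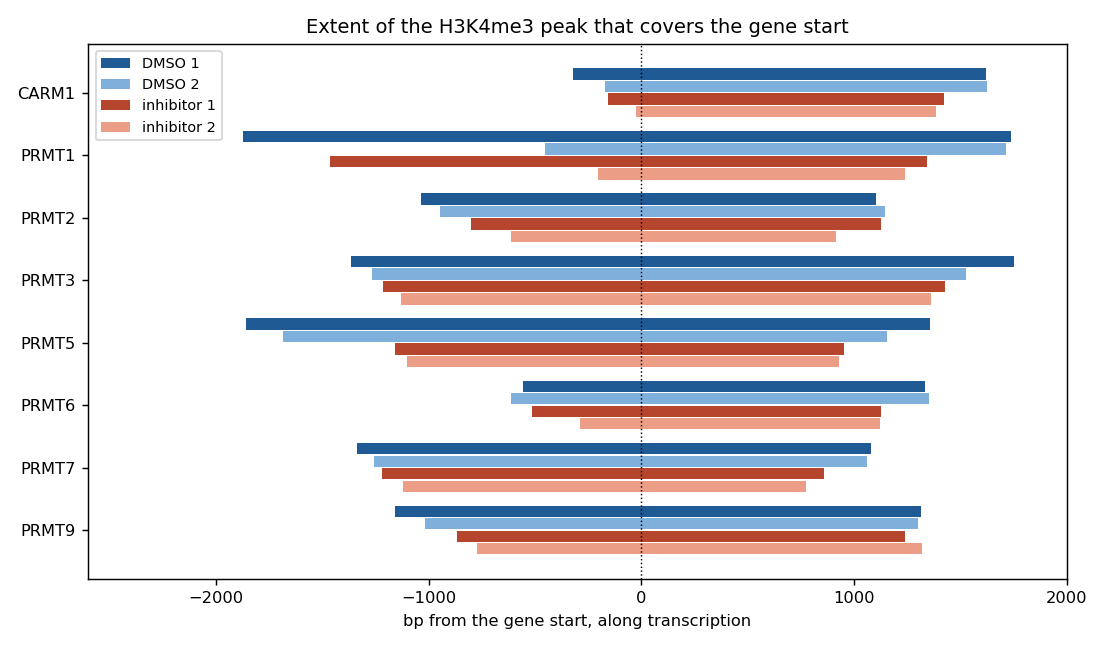
Extent of the H3K4me3 peak that covers the gene start, in bp from the start along transcription (x axis), for 8 members (y axis) with 1 bar per library. The red inhibitor bars are inside the blue DMSO bars on the upstream side at 7 members and on the downstream side at 6.

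H3K4me1 lay mostly away from the members' own starts. Of 28 H3K4me1 peaks in the windows over all libraries, 1 covered a member's start, 11 were elsewhere in a member and 15 touched another gene only. CARM1 had 7776 and 1170 covered bp with DMSO and no peak in either inhibitor library, and was the 1 member that lost the mark, of 3 that carried it in both DMSO libraries, as 24.9% of all genes did (33.3%, where 39.8% of 4973 genes lost it). The DMSO peaks that meet in both libraries lie before the gene, on C19orf38 (chr19:10868134-10871092 and chr19:10867804-10868973), and share 840 bp. Inside CARM1 itself H3K4me1 was found in DMSO replicate 1 alone. At PRMT1 the DMSO libraries had 5621 and 969 bp, and the inhibitor libraries 842 and 0 bp. Each of the 3 libraries with the mark had a peak inside PRMT1 after its start, and DMSO replicate 1 also had a peak before it and one at the edge of BCL2L12. PRMT7 had 12792 and 8600 bp against 5600 and 4760 bp, and was the member with H3K4me1 in every library. Most of that coverage was at its far end, in the neighbouring SMPD3, a sphingomyelinase gene, and 1 peak per library was inside PRMT7, at 43991 to 46973 bp from the start in DMSO replicate 1. At CARM1, PRMT1 and PRMT7 both inhibitor libraries were below both DMSO libraries, which 42.4% of the 10562 genes with any H3K4me1 peak also showed (exact permutation p = 0.33 each, two-sided).

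PRMT2 and PRMT5 had H3K4me1 in DMSO replicate 1 alone, with 2710 and 2689 bp, a pattern shared by 47.5% of the 10562 genes. PRMT3, PRMT6, PRMT8 and PRMT9 had none in any library, as did 47.1% of all genes. No member gained H3K4me1 (0.0633% of genes without a DMSO peak). In the limma fit PRMT7 was the member covered in all 4 libraries, with a log2 difference of -1.02 ± 0.63 (limma, adjusted p = 0.166) where the median of 1766 genes was -1.38 with 39.5% called lower and 0.0% higher. Its value turned to 0.54 ± 0.35 when libraries were centred on their median (limma, adjusted p = 0.34). With the 4 lists cut to the same number of widest peaks, or with the gene body alone, CARM1 no longer counted as having lost the mark. Without DMSO replicate 2, PRMT2 and PRMT5 counted as lost beside CARM1 (3 members), and without inhibitor replicate 1 PRMT1 did (2 members).

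**Figure D5:**
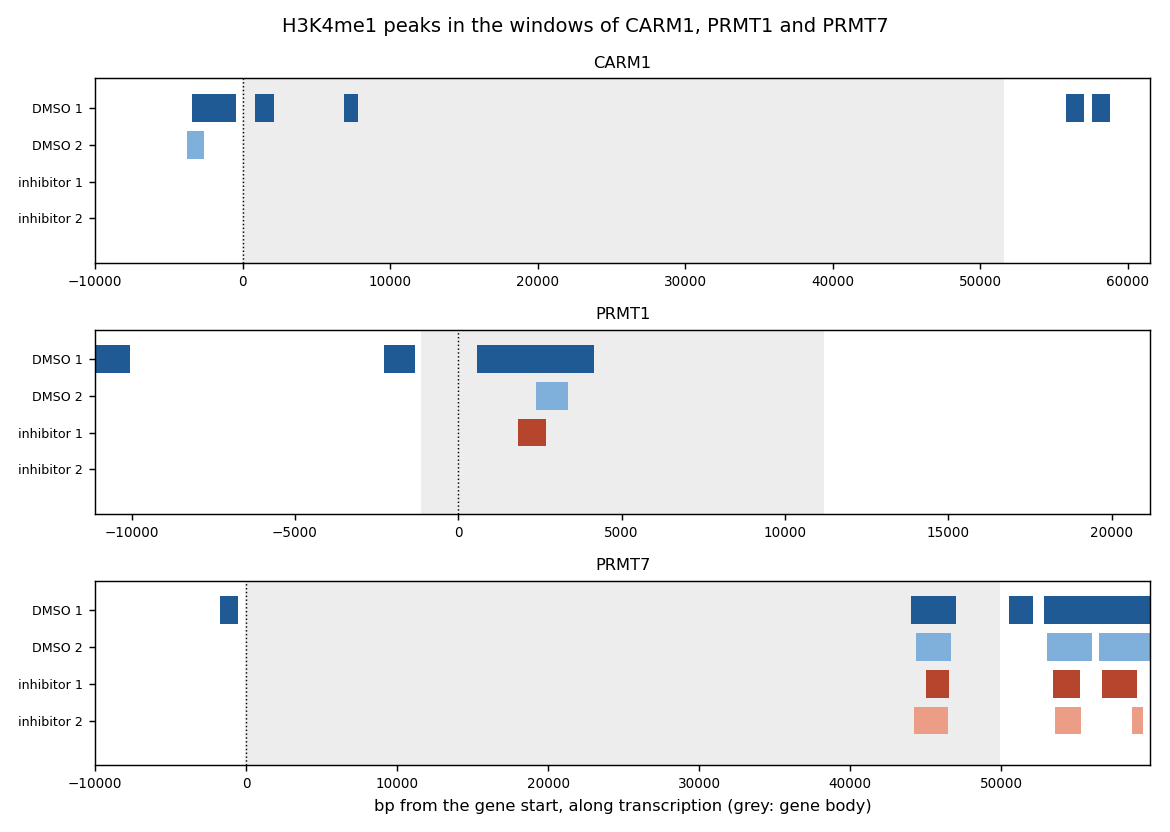
H3K4me1 peaks (bars) in the windows of CARM1, PRMT1 and PRMT7 by distance from the gene start in bp, 1 row per library, with the gene body in grey. CARM1 has bars in the DMSO rows only, and most bars of PRMT7 lie past the end of the gene in every row.

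Over the 27 pairs of a member and a mark, in 13 each inhibitor library had less coverage than each DMSO library, 0 had more, and 10 had no peak in any library. The other 4 overlapped between the groups. Of the 17 pairs with a value to test, 13 reached the smallest exact permutation p of 0.33 and 4 had p = 1. The single value that was higher with the inhibitor on average was H3K27ac at CARM1 itself, from 1 library. More coverage in both inhibitor libraries was seen for 5.44% of genes with H3K27ac, 0.133% with H3K4me1 and 0.563% with H3K4me3. Less coverage in both was seen for 25.3%, 42.4% and 82.8% of those genes. Of the 13 pairs with less coverage, 2 were of H3K27ac, 3 of H3K4me1 and 8 of H3K4me3.

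The genes around the family were read from 7 lists with 46 genes. The lists of PRMT5 partners, PRMT1 regulators, methyl donor supply, enzymes that act on or counteract arginine methylation, and readers of methylated arginine had no gene that lost or gained H3K27ac. No loss was possible for the PRMT5 partners and the readers, where 0 genes carried it in both DMSO libraries, and each of the other 3 lists had 2 such genes. In all, 3 of the 23 list genes that carried it in DMSO replicates 1 and 2 were without it after the inhibitor (13.0%, where the share among all genes was 24.1%). Among them were G3BP1, a stress granule protein (2312 and 1084 bp with DMSO), and SERBP1, an RNA-binding protein (2941 and 2227 bp with DMSO), each with 0 bp in both inhibitor libraries. H3K4me1 was lost at 7 of 16 genes (43.8%, against 39.8%), among them PADI2 and PADI4, enzymes that convert arginine to citrulline, the coactivator gene NCOA1, the chromatin remodelling subunit gene SMARCC1, and FBL and KHDRBS1. NCOA1 had 3997 and 1318 bp with DMSO. No list gene lost or gained H3K4me3. In the limma fit for H3K4me3 7 of 43 were lower (16.3%, against 17.4% of all genes) and 0 were higher. Named after their values were seen, these were MTAP, JMJD6, NCOA3, MED12, SMARCC1, KHDRBS1 and CIRBP. JMJD6, reported to act on methylated arginine, had 7617 and 7122 bp against 4334 and 3910 bp (-0.84 ± 0.11, limma, adjusted p = 0.00658). In the limma fit for H3K4me1 2 of 5 were lower (40.0%, near the 39.5% of all genes tested), BTG2 (-1.41 ± 0.56, limma, adjusted p = 0.0339) and CREBBP (-2.69 ± 0.77, limma, adjusted p = 0.00328), also named after their values were seen.

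The genes closest to CARM1 by Euclidean distance of log2(covered bp + 1000) over the 12 libraries were CCDC32 (0.902), BRD3 (0.913) and EVI5L (0.919). All 3 had H3K4me1 with DMSO only, and EVI5L also had a lone H3K27ac peak of 910 bp in inhibitor replicate 2. Closest to PRMT1 were P2RX6 (0.988), GUCD1 (1.07) and SNRPD3 (1.07), of which the last 2 share their peaks. GUCD1 had 3247 and 1238 bp of H3K27ac with DMSO and none with the inhibitor, and P2RX6 had 2080 and 1310 bp in the DMSO libraries against 0 and 820 bp. Both sets were picked on these same values, so their likeness to CARM1 and PRMT1 follows from the choice.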

How the data were processed

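ChIP-seq peaks of 3 histone marks were analysed in 12 libraries of Toledo cells, 2 per mark and treatment. The 4 input libraries were left out. For each library the authors deposited a list of peaks with 3 columns, the chromosome, start and end in bp, so peaks were called per library. Per the submitters' processing notes, the tools were Bowtie 1.1.2 and MACS 1.4.2 and the build was hg38. How the inputs entered, which reads were kept and which threshold applied is not given in the sources used here. Starts were moved by 1 bp to count from 1.

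Peak bp within each protein-coding gene of the GRCh38.p14 RefSeq table (chromosomes 1 to 22 and X) and 10 kb around it were summed. A gene with a peak (at least 1 bp) in both DMSO libraries and in neither inhibitor library was lost, and the reverse was gained. Covered length was compared by two-sided exact permutation tests over the 6 assignments of 4 libraries, raw p in 27 pairs, of which 17 held a peak, and by limma 3.58.1 (R 4.3.3, Benjamini-Hochberg at 0.05 over all genes covered in all 4 libraries). Windows of neighbouring genes share peaks. On simulated data the fit recovered most planted changes for H3K4me3. For H3K27ac and H3K4me1 it missed most, the larger ones included, so a gene without a call for those marks may still differ.

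The labels do not say whether replicates are separate cultures. The p-values therefore reflect the spread between these libraries only, and that spread may be technical. Gene starts came from the RefSeq promoter table, which had 1 for 15812 of the genes. All 9 members and the neighbours their peaks touch were named, list genes that lost or gained a mark (up to 4 per list and mark), and the 3 genes most like CARM1 and PRMT1. The members and lists were chosen with earlier results of these data known. Some list and marker genes are not reported here by name.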

Additional observations from a re-analysis of the deposited data

How the results depend on the processing

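The counts of members losing H3K4me3 (0) and gaining H3K4me1 or H3K4me3 (0) were the same under all alternatives run. The members losing H3K27ac, and those with less H3K27ac coverage in both inhibitor libraries, were PRMT1 and PRMT3 under all alternatives run but one: without DMSO replicate 2, PRMT2 was added to each (3 members). The members gaining H3K27ac numbered 0 to 1 when libraries were left out in turn, where the 1 was CARM1 without inhibitor replicate 1. The members losing H3K4me1 went from 1 to 0 with the gene body only, with 2 kb windows, with peaks within 2 kb of the start, with peaks on no other gene and with lists of equal length, and numbered 1 to 3 with libraries left out: CARM1, PRMT2 and PRMT5 without DMSO replicate 2, and CARM1 and PRMT1 without inhibitor replicate 1. The members with less H3K4me1 coverage in both inhibitor libraries numbered 3. They went to 2 (PRMT1 and PRMT7) with the gene body only, with 2 kb windows and with peaks on no other gene. They went to 0 in lists of equal length and numbered 3 to 5 with libraries left out. For H3K4me3 such members went from 8 to 6 with the gene body only, without PRMT2 and PRMT9. They went to 7 in lists of equal length, without PRMT1, and to 7 with peaks on no other gene, without PRMT7. Limma calls for H3K4me1 went from 0 to 1 (PRMT7, -1.48) with 25 kb windows, where 964 of 2461 genes were called lower (median -1.52). Those for H3K4me3 went from 2 to 1 with genes covered in any library and a pseudocount of 1000 bp and with lists of equal length (PRMT5 in each), to 0 with centred libraries and with the gene body only, and numbered 0 to 4 with libraries left out. With centred libraries the log2 difference turned to 0.536 for H3K4me1 at PRMT7, and for H3K4me3 to 0.044 at PRMT2, 0.141 at PRMT3, 0.002 at PRMT6, 0.09 at PRMT7 and 0.154 at PRMT9. The cause was not tested.

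With centred libraries limma called 599 genes lower and 59 higher for H3K4me3 (1970 and 9 uncentred), 36 and 13 for H3K4me1 (698 and 0), and 39 and 49 for H3K27ac (0 and 0, with 157 genes at an unadjusted p under 0.05). With the replicate number as a block, limma called 3 of 8 members for H3K4me3, adding CARM1 (-0.38, adjusted p = 0.0345), and 4461 genes lower. The labels do not say that the numbers pair the libraries, and the deviations of same-numbered libraries correlated at 0.13 for H3K27ac, 0.01 for H3K4me1 and 0.05 for H3K4me3 over genes. Stricter peak thresholds could not be run without scores, and the widest peaks stood in for them.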
